A study of Dendroctonus valens with 12 samples.

Results

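Adult red turpentine beetles (Dendroctonus valens) collected in January were compared with adults collected in May. The comparison used 6 of the 12 libraries of the series, 3 January adults, marked as cold in the labels, and 3 May adults, marked as normal. The other 6 libraries were larvae of the same months. Each library held poly(A) RNA of 1 whole adult taken from the field, so month, temperature, food and age of the adults cannot be told apart, and no adult was kept under controlled cold. The labels and the study's methods do not state the sex of the adults. The files hold FPKM (fragments scaled by transcript length and by the total mapped in the library) for 58956 unigenes, the non-redundant transcripts of a de novo assembly. Of these, 4823 were left out because they reached 1 FPKM in January larva 3 and in May larva 1 but stayed under 0.1 FPKM in the other 4 larvae, and may come from another organism. Of 23423 unigenes at 1 FPKM or more in at least 3 of the 6 adult libraries, 4327 fell under that rule and 19096 were tested.

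The red turpentine beetle is a bark beetle. Adults bore into the lower trunk and roots of pines, feed on phloem and lay eggs there, and adults as well as larvae pass the winter under the bark. Bark beetles digest phloem with gut cysteine and serine proteases and with glycoside hydrolases that open plant cell walls. Overwintering insects commonly stop feeding, lower their respiration and draw on stored fat and sugars, while sugars and polyols such as trehalose and glycerol protect tissues against freezing.

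Levels below are FPKM after median-of-ratios scaling between the 6 libraries, in which each library is divided by the median ratio of its unigenes to their geometric mean. Differences are January minus May on the log2(scaled FPKM + 1) scale, with the standard error of the fit, and a unigene was called at a Benjamini-Hochberg adjusted p under 0.01 and a difference of 1 or more. These differences understate the change of unigenes at low levels.

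The libraries separated by month along the first principal component, which carried 63.1% of the variance. Correlations between libraries of the same month were 0.714 to 0.896, and those between months 0.40 to 0.679. January adult 3 and May adult 1 stood apart from the other 4 on the second component (20% of the variance). Of 13 sperm and ciliary proteins, none of which passed the filter on low values, 9 reached 1 FPKM in January adult 3 and 3 did in May adult 1, against 0 to 2 in the other 4 libraries, and their summed FPKM was 63.3 and 15.7 against 1.56 to 5.63. Without adenylate kinase 9 (TRINITY_DN21830_c0_g7), which was listed at 0 in the other 5 libraries, the sum in May adult 1 was 7.98. The putative vitellogenin receptor (TRINITY_DN25457_c0_g1), which takes yolk protein into oocytes, was at 0.273 in January adult 3 and 0.186 in May adult 1, but at 68.0, 54.5, 41.6 and 16.6 in the other libraries. Each month thus held 1 library with this receptor near 0, and the part of this difference in the month comparison was not tested. The left-out unigenes took 9.51%, 6.01% and 3.02% of the FPKM sum in the January adults against 0.730%, 1.15% and 0.148% in the May adults (exact permutation test, two-sided, p = 0.1, the smallest that 3 against 3 allows). No read counts are used here. FPKM steps at low levels put the value of 1 read at 0.886 to 1.05 times that in January adult 1, so depths were similar.

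Of 19096 unigenes tested, 3533 (18.5%) were called. In January adults, 2107 (11.0%) were up-regulated and 1426 (7.47%) down-regulated. The 2 groups did not overlap in 10222 unigenes (53.5%), among them all 3533 called. All 3533 kept their direction, a difference of 1 or more and an unadjusted p under 0.05 in each of the 6 fits with 1 library left out. The adjusted p did not hold in those fits, where 1 to 343 unigenes were called higher and 0 to 360 lower. The lowest counts, 1 and 0, came without May adult 3. Without January adult 3 and May adult 1 together, 2 and 0 unigenes were called at 0.01 and 3715 and 2604 at 0.05, beside 4440 and 3340 at 0.05 with all 6 libraries.

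**Figure D1:**
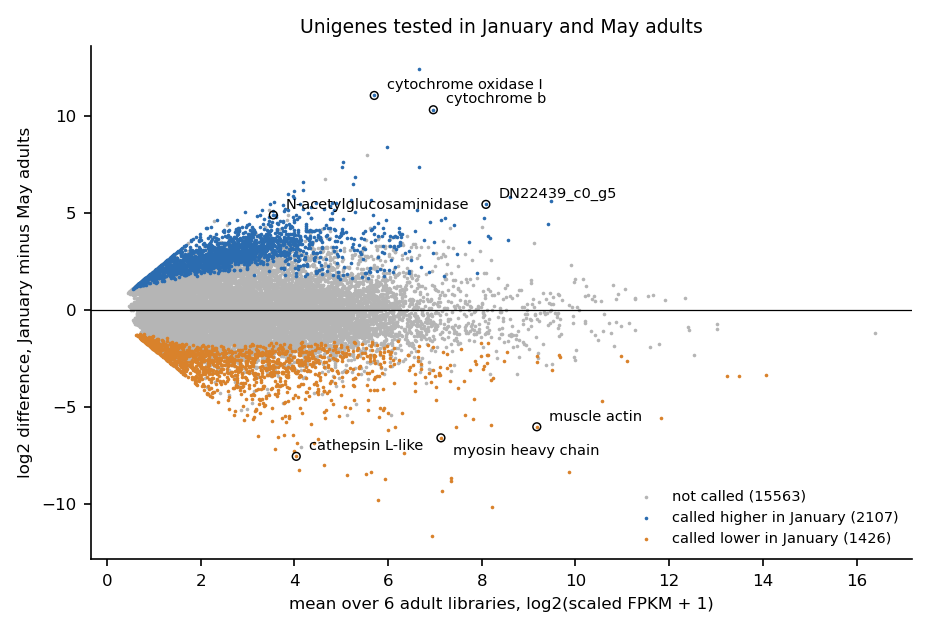
Difference between January and May adults (y axis, log2) against the mean level over the 6 adult libraries (x axis, log2 of scaled FPKM + 1) for the 19096 unigenes tested. Blue points were called higher in January (2107), orange points lower (1426) and grey points were not called. Circles mark the named unigenes, with cytochrome oxidase I at 11.07 and cathepsin L-like proteinase at -7.52.

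The balance of the directions depended on the scaling. The share of called unigenes that were higher in January was 59.6% with median-of-ratios scaling, 79.9% with FPKM as deposited (2985 higher or 15.6%, 753 lower or 3.94%), 69.0% with equal FPKM sums (1798 or 9.42%, 807 or 4.23%), 52.9% with equal sums without the 20 most abundant unigenes (1583 or 8.29%, 1410 or 7.38%), 85.2% with median-of-ratios scaling over unigenes that best match the mountain pine beetle D. ponderosae (4167 or 21.8%, 724 or 3.79%), and 37.8% when the left-out unigenes entered the scaling (1372 or 7.18%, 2254 or 11.8%). The median difference of all unigenes was 0.06, 0.55, 0.30, -0.06, 0.71 and -0.35 in the same order. Over the first 5 of these scalings, 1553 unigenes were called higher and 658 lower in every scaling. Differences below are given with the first scaling, and with the D. ponderosae scaling, which moved all unigenes up the most, where that ends a call. The D. ponderosae matches include members of the study's table of genes common to adults and larvae, which was made from these libraries. By the first scaling, the median difference was -0.76 over the 1468 tested matches and -0.51 over the 936 outside that table.

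**Figure D2:**
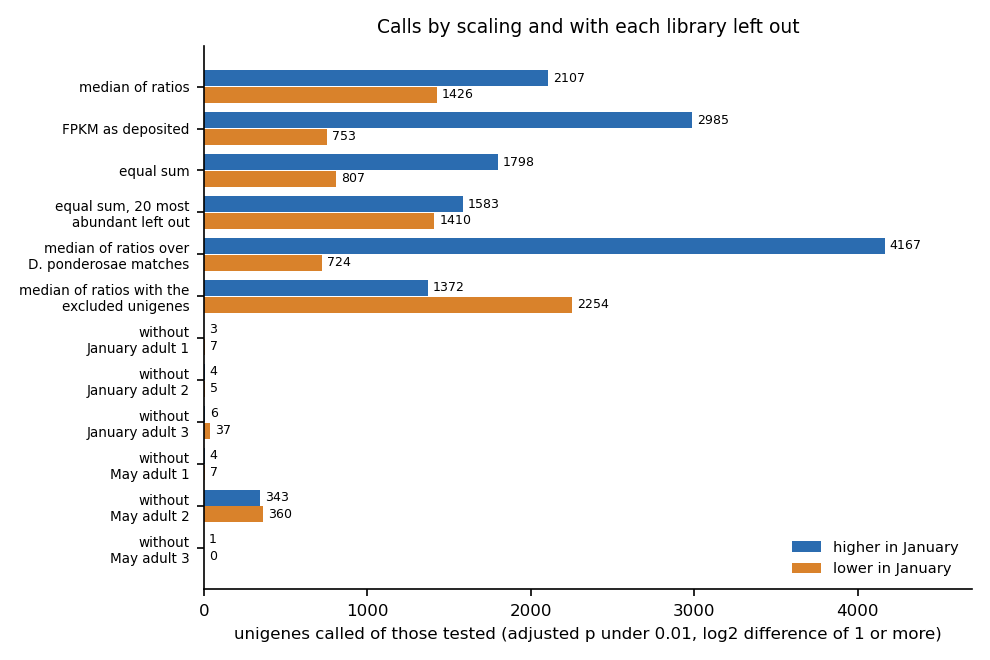
Number of unigenes called (x axis) under 6 scalings and with each of the 6 adult libraries left out (y axis). Blue bars, higher in January, run from 1372 to 4167 and orange bars, lower in January, from 724 to 2254 under the scalings, against at most 343 and 360 with a library left out.

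Among the called unigenes that carry an annotation here, the 2 directions differed in what they match. Of the 2107 higher in January, 82 have an annotation among those used here, and 33 of these match beetle proteins, whereas 330 of the 1426 lower in January are annotated, and 298 of these match beetles. Of the annotated ones, 52 higher and 259 lower belong to the study's table of genes common to adults and larvae. That table was made from these libraries, so this contrast is not independent evidence. Outside it, 6 (0.641%) of 936 tested D. ponderosae matches were called higher and 61 (6.52%) lower. Of 1536 tested unigenes with a beetle match, 33 (2.15%) were called higher and 298 (19.4%) lower, against 11.0% and 7.47% of all unigenes. With the D. ponderosae scaling 156 of them were called higher and 139 lower, against 21.8% and 3.79% of all unigenes. Of 22 tested unigenes with a nematode match, 12 (54.5%) were called higher and 0 lower. Nematode matches took 0.147%, 0.257% and 0.132% of the FPKM sum in January adults and 0.0247%, 0.0515% and 0.0104% in May adults. In the 4 larvae that the exclusion rule did not require to be high, 419 (19.9%) of the unigenes higher in January adults and 1088 (76.3%) of those lower reached 1 FPKM in at least 1 larva, against 67.1% of all tested unigenes. Only 211 higher and 685 lower were called when the test was limited to unigenes seen in those larvae. The part of other organisms in the unigenes higher in January was not tested.

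The proteases of a list chosen by name as digestive were down-regulated in January adults. All 16 members of this list, drawn from the study's table of genes common to adults and larvae, were called lower (7.47% of all unigenes were), with a median difference of -4.56. The list also holds lysosomal Pro-X carboxypeptidase-like (TRINITY_DN19761_c0_g1) and retinoid-inducible serine carboxypeptidase (TRINITY_DN20126_c0_g1). A part in digestion is therefore not given for each member. The table was made from these libraries, so the direction of its members is not independent evidence, and 712 of its unigenes were used here. Of the 674 of them that were tested, 259 (38.4%) were called lower and 52 (7.72%) higher, which is the share to set beside every list drawn from it. With the D. ponderosae scaling 12 of 16 were called lower, against 3.79% of all unigenes. Their summed share of FPKM was 0.00744% to 0.0189% in January and 0.176% to 0.284% in May. Because whole insects were sequenced, fewer cells of a type and less RNA per cell cannot be told apart, here and below.

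Cathepsins are papain-like cysteine proteases, the main gut proteases of many beetles. Cathepsin L-like proteinase (TRINITY_DN19794_c0_g1) was at 0.0884, 0.125 and 0.452 in January adults and at 311, 57.4 and 606 in May adults, a difference of -7.52 (SE 0.81, adjusted p = 0.00395). The January libraries were all near 0, and the lowest May library was far above the highest of them. Cathepsin B (TRINITY_DN20068_c0_g1) was at 0.759, 1.97 and 1.26 in January and 305, 141 and 255 in May (-6.62, SE 0.44, adjusted p = 0.00142). A second cathepsin B unigene (TRINITY_DN19697_c0_g1) was listed at 0 in January adult 3, at 0.464 and 1.56 in the other January adults and at 164.5, 109 and 294 in May (-6.82, SE 0.53, adjusted p = 0.00266). Cathepsin L1-like (TRINITY_DN18927_c0_g1), for which the study designed qPCR primers, was at 4.58, 18.9 and 5.27 in January and 653, 419 and 677 in May (-6.01, SE 0.55, adjusted p = 0.00327). The weakest of the 16 was an aspartic proteinase-like unigene (TRINITY_DN25032_c0_g4), at 24.0, 39.9 and 53.7 in January and 254, 207 and 129 in May (-2.32). It was not called with FPKM as deposited, with equal FPKM sums or with the D. ponderosae scaling.

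A pair of serine proteases outside that table were also called lower. Brachyurin-like TRINITY_DN18826_c0_g1, a chymotrypsin-family collagenase in crustaceans, was at 16.4, 39.9 and 13.2 in January and 1491, 885 and 2145 in May (-6.03, SE 0.54, adjusted p = 0.00318). A weaker unigene of that name (TRINITY_DN16973_c0_g1) was at 0.0810, 0.244 and 0.631 against 3.65, 7.07 and 7.24 (-2.38, SE 0.40, adjusted p = 0.00569). Of 12 digestive hydrolases tested from the protein matches, 3 (25.0%) were called lower and 0 higher, against 7.47% and 11.0% of all unigenes. With the D. ponderosae scaling 2 were called lower. All 12 differences were below 0, as were 9285 of the 19096 over all unigenes.

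The sequences of the unigenes themselves are not used here. The study's qPCR primers show which stretch of the transcripts was assayed, and they are given 5′ to 3′ for the cathepsin and for the 2 unigenes of that assay that were most up-regulated in January adults, TRINITY_DN27537_c0_g1 and TRINITY_DN22439_c0_g5, whose values follow below.
cathepsin L1-like, forward: aaactttggatgcgatggcg
cathepsin L1-like, reverse: acagcgcttcttcatcacca
TRINITY_DN27537_c0_g1, forward: ttgaagactcaccgaacggg
TRINITY_DN27537_c0_g1, reverse: tgctggcaacccaaatagct
TRINITY_DN22439_c0_g5, forward: ctgcggaaatcgaatctggc
TRINITY_DN22439_c0_g5, reverse: gtcttggggagttgggacag

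Enzymes that open plant cell walls and split phloem sugars were lower for part of the list. Of 28 tested from the table of common genes, 16 (57.1%) were called lower and 0 higher, with a median of -3.27, against 38.4% of the table and 7.47% of all unigenes. Under the D. ponderosae scaling 7 were called lower and 1 higher. Polygalacturonase (TRINITY_DN19622_c0_g1), which cuts pectin, was at 0.435, 1.28 and 0.620 in January and 41.7, 32.6 and 49.96 in May (-4.58, SE 0.40, adjusted p = 0.00318). Exoglucanase B, a cellulose-degrading enzyme, had 3 tested unigenes. The unigene TRINITY_DN23919_c1_g1 was at 4.22, 7.35 and 2.45 in January and 202, 26.2 and 157 in May (-4.17, SE 0.79, adjusted p = 0.00728, not called with the D. ponderosae scaling). May adult 2 had the lowest level of the May adults in that unigene, as it did in TRINITY_DN23919_c0_g1, which was at 656, 12.1 and 967 in May and missed the threshold at an adjusted p of 0.0101. Myrosinases split plant glucosides. Of the 9 tested myrosinase unigenes in this list, 4 were called lower, against 38.4% of the table of common genes. That table was made from these libraries, so this count is not independent evidence. Among the 4 was TRINITY_DN22319_c0_g1 (0.140, 0.171 and 0.0526 in January, 33.9, 10.7 and 20.1 in May, -4.19, adjusted p = 0.00395). Not every member was lower, since myrosinase 1 unigene TRINITY_DN22028_c0_g1 was at 8.07, 23.1 and 7.28 in January and 1.94, 0.264 and 2.61 in May. It was not called (2.36, adjusted p = 0.0190), except higher with the D. ponderosae scaling.

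The peritrophic membrane lines the insect midgut, and cuticle proteins with chitin form the outer skeleton. Of 5 cuticle and peritrophic proteins of the table, 3 were called lower and 0 higher, and 2 lower and 1 higher with the D. ponderosae scaling. Peritrophin-1 (TRINITY_DN20500_c0_g1) was listed at 0 in January adult 1, at 0.296 and 2.03 in the other January adults and at 13.8, 23.6 and 23.9 in May (-3.73, SE 0.53, adjusted p = 0.00446). Cuticle protein 6 (TRINITY_DN20685_c0_g1) was at 0.162, 0.184 and 1.91 against 240.3, 19.1 and 118 (-5.71, SE 0.91, adjusted p = 0.00529). A pair of chitin-degrading enzymes had higher levels in January. Acidic mammalian chitinase (TRINITY_DN19094_c0_g1) was at 338, 136 and 9.68 in January and 3.83, 1.52 and 0.509 in May, without overlap but not called (4.91, adjusted p = 0.0154) except with the D. ponderosae scaling. Chitooligosaccharidolytic beta-N-acetylglucosaminidase (TRINITY_DN20829_c0_g1), which splits the sugar chains that chitinases release, was at 30.7, 89.2 and 91.3 in January and 3.08, 0.825 and 0.308 in May (4.91, SE 0.62, adjusted p = 0.00397).

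Muscle transcripts were lower in part of the list. Of 8 muscle proteins tested, 3 (37.5%) were called lower and 0 higher (median -1.84), against 7.47% of all unigenes. The D. ponderosae scaling left 2, against 3.79%. Muscle actin (TRINITY_DN22247_c2_g1), the thin filament of muscle, was at 155, 109 and 21.0 in January and 4101, 3746 and 6425 in May (-6.001, SE 0.73, adjusted p = 0.00395). Muscle myosin heavy chain (TRINITY_DN25111_c1_g1), the motor of the thick filament and a member of the table of common genes, was at 2.84, 27.5 and 25.96 in January and 2259, 812 and 1380 in May (-6.57, SE 0.82, adjusted p = 0.00397). In both unigenes the lowest May library lay far above the highest January library. The M-line assembly protein unc-89-like (TRINITY_DN27091_c0_g2), part of the giant-protein scaffold of the sarcomere, was at 0.162, 0.975 and 1.83 against 31.8, 19.9 and 33.6 (-3.94, SE 0.48, adjusted p = 0.00395). Muscle calcium channel subunit alpha-1 (TRINITY_DN26185_c0_g1) was at 2.72, 4.49 and 3.42 against 31.8, 15.7 and 31.6 (-2.54, adjusted p = 0.00583), and this call was lost with the D. ponderosae scaling. Other muscle genes did not follow. Troponin I (TRINITY_DN26658_c1_g1), which blocks contraction until calcium rises, was at 274, 841 and 1607 in January and 839, 688 and 851 in May, so that the groups overlapped (-0.13, adjusted p = 0.887). The difference between actin and troponin I within the same libraries does not depend on the scaling.

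**Figure D3:**
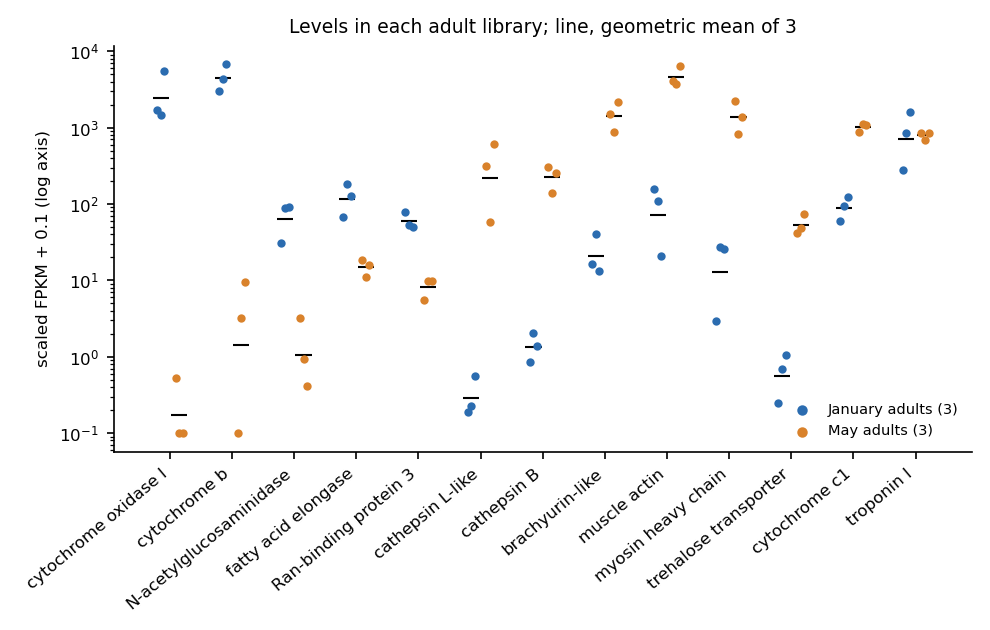
Levels of 13 named unigenes in each adult library (y axis, scaled FPKM + 0.1 on a log axis), with January adults in blue, May adults in orange and the geometric mean of the 3 libraries as a line. The months do not overlap in 12 of the unigenes, and troponin I is the exception.

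Part of the genes of energy metabolism were down-regulated. Of 20 tested from the table of common genes, 13 (65.0%) were called lower and 0 higher (median -2.30), against 38.4% of the table. With the D. ponderosae scaling 5 were called lower and 1 higher. Cytochrome c1 (TRINITY_DN24265_c0_g1), a subunit of respiratory complex III, was at 59.2, 95.3 and 122 in January and 871, 1110.5 and 1073 in May (-3.50, SE 0.39, adjusted p = 0.00395). Cytochrome c oxidase subunit 7C (TRINITY_DN24379_c0_g1) of complex IV was at 25.1, 40.7 and 73.7 against 359.6, 561 and 408 (-3.33, SE 0.47, adjusted p = 0.00438). Cytoplasmic malate dehydrogenase (TRINITY_DN19831_c0_g2) was at 27.1, 55.0 and 50.1 against 593, 310.0 and 432 (-3.32, SE 0.43, adjusted p = 0.00416). These kept their calls under the first 5 scalings. ATP synthase subunits alpha (TRINITY_DN18757_c0_g2, -2.34) and beta (TRINITY_DN23117_c1_g2, -2.29), the catalytic ring of complex V, were called lower but not with the D. ponderosae scaling. Glyceraldehyde-3-phosphate dehydrogenase (TRINITY_DN22610_c0_g2, -2.14) of glycolysis and fructose-1,6-bisphosphatase 1 (TRINITY_DN21780_c1_g1, -2.39) of gluconeogenesis likewise lost their calls with that scaling. The only member above 0 was 6-phosphogluconate dehydrogenase (TRINITY_DN22402_c0_g1), which yields NADPH in the pentose phosphate pathway, at 173, 92.5 and 99.0 in January and 34.9, 49.0 and 36.6 in May (1.53, adjusted p = 0.0182, called higher with the D. ponderosae scaling). Of 8 nuclear respiratory chain unigenes tested from the protein matches, 1 (12.5%) was called lower, the 7C subunit, against 7.47% of all unigenes. Of their differences, 7 were below 0. Of 3 glycolysis and citrate cycle unigenes from the protein matches 0 were called, and 2 were lower at an unadjusted p under 0.05.

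The mitochondrially encoded unigenes went the other way. Cytochrome oxidase subunit I (TRINITY_DN20652_c0_g1, best match in D. rhizophagus), the catalytic core of complex IV, was at 1722, 1458 and 5584.5 in January adults, at 0.426 in May adult 1 and listed at 0 in the other May adults (adjusted p = 0.000917). Cytochrome b (TRINITY_DN20349_c0_g2, best match in a longhorn beetle), the core of complex III, was at 3050.5, 4330 and 6808 in January and listed at 0, then at 3.10 and 9.30, in May (10.33, SE 0.82, adjusted p = 0.00271). Every cell that respires uses both genes, so a value of 0 says only that these unigenes were listed at 0. Of the 3 mitochondrially encoded unigenes tested, the third, a cytochrome c oxidase subunit III with a human best match (TRINITY_DN16728_c1_g1), was at 1.78, 0.843 and 1.34 against 1.82, 1.32 and 3.27 (-0.41, 0.13 with the D. ponderosae scaling, not called under either). A further unigene with no name here, TRINITY_DN20328_c0_g1, had the same form, with 5153, 5914 and 13972 in January adults and 1.501 in May adult 3, and was listed at 0 in the other May adults.

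Trehalose is the main blood sugar of insects, and Tret1 carries it across membranes. Of 7 sugar transport and trehalose unigenes tested from the protein matches 2 were called lower, and of 8 from the table of common genes 5 were, with 1 unigene in both lists and 0 called higher in either. These are 28.6% and 62.5%, against 7.47% of all unigenes and 38.4% of the table. With the D. ponderosae scaling 2 were called lower in each list. Facilitated trehalose transporter Tret1-like TRINITY_DN20184_c0_g1 was at 0.147, 0.586 and 0.957 in January and 41.7, 48.2 and 73.4 in May (-5.14, SE 0.42, adjusted p = 0.00313). Tret1-like TRINITY_DN20263_c0_g2, outside the table, was at 1.81, 2.66 and 1.29 against 47.8, 56.1 and 33.6 (-3.999, SE 0.40, adjusted p = 0.00371). Tret1 TRINITY_DN22684_c0_g1 was at 0.965, 0.566 and 1.36 against 40.1, 33.1 and 39.2 (-4.31, SE 0.38, adjusted p = 0.00318). These 3 transporters were called lower under the first 5 scalings. Trehalase-like TRINITY_DN23361_c0_g1, which splits trehalose into glucose, was at 3.78, 3.68 and 5.84 against 22.3, 55.8 and 30.7 (-2.70, adjusted p = 0.00572), a call lost with the D. ponderosae scaling.

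Lipid genes were called in both directions. Of 8 fatty acid elongation, desaturation and lipid synthesis unigenes of the table, 5 (62.5%) were called lower and 1 higher, against 38.4% and 7.72% of the table, but with the D. ponderosae scaling 1 was called in each direction. Of 14 lipid unigenes tested from the protein matches 3 (21.4%) were called lower and 0 higher, against 7.47% and 11.0% of all unigenes. With that scaling 2 were called lower. These 14 are not all outside the table, since the trifunctional enzyme below is in both. A pair of elongases, which lengthen fatty acid chains, were called in opposite directions. Elongase TRINITY_DN23125_c0_g1 was at 66.9, 183 and 127 in January and 18.5, 10.9 and 15.9 in May (2.89, SE 0.47, adjusted p = 0.00542), whereas elongase TRINITY_DN23351_c0_g3 was at 9.83, 16.9 and 19.6 against 187, 126 and 131 (-3.21, SE 0.40, adjusted p = 0.00397). The libraries of the 2 months did not overlap in either, and both calls held under the first 5 scalings. The alpha subunit of the mitochondrial trifunctional enzyme (TRINITY_DN21488_c0_g4) carries out steps of fatty acid beta-oxidation. This member of the table of common genes was at 1.98, 5.46 and 3.15 against 59.97, 184.5 and 65.1 (-4.40, SE 0.55, adjusted p = 0.00397). The acyltransferase 1-acyl-sn-glycerol-3-phosphate acyltransferase (TRINITY_DN26387_c0_g2), an early enzyme of glycerolipid synthesis, was at 3.22, 4.02 and 2.06 against 27.5, 30.6 and 31.3 (-2.94, SE 0.38, adjusted p = 0.00415). Acyl-CoA desaturase (TRINITY_DN19691_c0_g1), which makes membrane lipids less saturated, was at 19.9, 27.99 and 24.5 against 99.6, 112 and 92.1 (-2.03, SE 0.34, adjusted p = 0.00562), but was not called with the D. ponderosae scaling (-1.18).

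Detoxification and hormone genes were lower for some members. The part of the table of common genes used here holds 3 cytochrome P450 unigenes, and the rest of the table was not analysed here. The 2 that were tested were called lower under the first 5 scalings. By the first scaling 38.4% of the table was called lower. Cytochrome P450 4c3-like (TRINITY_DN24057_c1_g2) was at 0.103, 0.191 and 0.473 in January and 104, 44.1 and 47.4 in May (-5.62, SE 0.46, adjusted p = 0.00313). CYP4G56v1 (TRINITY_DN22103_c0_g1), of a family that makes cuticular hydrocarbons in insects, was at 23.3, 39.4 and 28.3 against 305, 385 and 216 (-3.27, SE 0.39, adjusted p = 0.00395). Of 8 carboxylesterases of that table, 5 (62.5%) were called lower (4 with the D. ponderosae scaling), against 38.4% of the table. Venom carboxylesterase-6 (TRINITY_DN21997_c0_g1) led them at 0.597, 3.79 and 1.52 against 274, 65.8 and 198 (-5.84, SE 0.65, adjusted p = 0.00395). Among 13 detoxification enzymes and exporters of the protein matches, only esterase E4-like (TRINITY_DN19574_c0_g1, -3.03) was called, 7.69% of the list against 7.47% of all unigenes. Its call was lost with the D. ponderosae scaling, where 2 were called higher, among them cytochrome P450 4C1-like (TRINITY_DN25370_c0_g6), at 3.50 with an adjusted p of 0.0196 by the first scaling. Of 4 ecdysone and juvenile hormone unigenes 2 were called lower (1 with the D. ponderosae scaling). Juvenile hormone epoxide hydrolase 1-like (TRINITY_DN22746_c0_g1), which breaks down juvenile hormone, is also in the table of common genes. It was at 2.67, 6.49 and 4.58 in January and 57.6, 67.3 and 42.3 in May (-3.38, SE 0.42, adjusted p = 0.00397). The ecdysone receptor (TRINITY_DN27540_c0_g1), a nuclear receptor for the moulting hormone, was at 2.50, 2.77 and 1.28 against 12.3, 16.9 and 10.6 (-2.17, adjusted p = 0.00739), a call lost with the D. ponderosae scaling.

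Chaperones, antioxidant and iron proteins and immune proteins of the protein matches gave few calls. Other genes that the paper links to cold tolerance, such as trehalose transporters, are given above. Of 7 chaperones, 0 were called in limma, although 2 were lower at an unadjusted p under 0.05, and their median of -0.57 turned to 0.29 with the D. ponderosae scaling. Heat shock protein 70 A1-like (TRINITY_DN26176_c0_g3), which refolds damaged proteins, was at 18.2, 15.8 and 303 in January and 566, 515 and 86.6 in May (-2.68, SE 1.22, adjusted p = 0.121), so that January adult 3 lay above May adult 3. Heat shock 70 kDa protein-like TRINITY_DN21218_c1_g2 was at 0.914, 0.547 and 0.357 against 10.04, 3.12 and 4.89. Its months did not overlap, as in 53.5% of all unigenes, but it missed the threshold (-2.02, SE 0.46, adjusted p = 0.01225). Of 5 antioxidant and iron proteins 0 were called, with 1 lower at an unadjusted p under 0.05 and a median of -0.31, which turned to 0.54 with the D. ponderosae scaling. Soma ferritin-like (TRINITY_DN27039_c1_g1), an iron store, was at 9.74, 36.0 and 79.7 against 7.41, 12.4 and 9.31 (1.60, adjusted p = 0.115). Of 10 immune proteins 1 was called lower, protein croquemort-like (TRINITY_DN25594_c0_g1), a scavenger receptor of Drosophila blood cells, at 4.15, 5.61 and 3.24 against 29.1, 37.5 and 23.2 (-2.53, adjusted p = 0.00507).

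Further unigenes outside the table of common genes were named by the size of their decrease. Lachesin (TRINITY_DN21145_c0_g7), an immunoglobulin-family cell adhesion protein, was at 2.28, 3.63 and 3.91 in January and 42.5, 32.9 and 35.2 in May (-3.16, SE 0.37, adjusted p = 0.00395). Voltage-gated potassium channel subunit beta-2 (TRINITY_DN23825_c0_g6) was at 0.228, 0.494 and 1.57 against 28.1, 13.1 and 21.0 (-3.63, SE 0.48, adjusted p = 0.00419). AF4/FMR2 family member 4 (TRINITY_DN26475_c0_g1), a scaffold of transcription elongation complexes, was at 0.177, 0.474 and 0.473 against 5.58, 4.398 and 4.33 (-2.07, adjusted p = 0.00531). Pikachurin-like TRINITY_DN10064_c0_g1 was listed at 0 in the January adults and at 6.495, 5.06 and 1.78 in the May adults (adjusted p = 0.00672). Among 13 neuronal receptors and channels of the protein matches, only the octopamine receptor Oamb (TRINITY_DN25938_c0_g2, -1.74) was called lower, 7.69% against 7.47% of all unigenes. This call was lost with the D. ponderosae scaling, where 1 other member was called higher.

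For ribosome and RNA processing genes, the median and the calls differed. The median difference of 24 ribosome biogenesis and RNA processing unigenes of the table was 1.02, against 0.06 over all unigenes, with 19 above 0, but 2 (8.33%) were called higher and 2 (8.33%) lower, against 7.72% and 38.4% of the table and 11.0% and 7.47% of all unigenes. By the D. ponderosae scaling 12 were called higher (21.8% of all unigenes were) and 1 lower. Pseudouridine-5'-phosphatase-like (TRINITY_DN22937_c0_g1) was at 15.9, 60.4 and 22.1 in January and 1.66, 1.47 and 0.737 in May (3.68, SE 0.56, adjusted p = 0.00494). The probable ATP-dependent RNA helicase CG8611 (TRINITY_DN23550_c0_g2) was at 41.05, 25.8 and 38.5 against 5.54, 10.2 and 6.30 (2.13, SE 0.40, adjusted p = 0.00731). The median of the 4 cytosolic ribosomal proteins tested from the protein matches was 0.92 and above 0 under each of the 6 scalings, without a call by the first scaling. The 60S ribosomal protein L13 (TRINITY_DN23156_c0_g10) was at 708, 531 and 677 against 339, 334 and 264 (1.03, adjusted p = 0.0448). The mitochondrial 28S ribosomal protein S18b (TRINITY_DN23810_c0_g1), of the first list, was called lower (-2.70, adjusted p = 0.00502). This call was lost with FPKM as deposited and with equal FPKM sums. Of 7 mitochondrial ribosome and translation unigenes of the protein matches 0 were called, with 1 lower at an unadjusted p under 0.05 and a median of -0.17 that turned to 0.68 with the D. ponderosae scaling.

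Transcription factors were split. Of 29 zinc finger and other transcription factors of the table, 20 were above 0 and the median was 0.90, but 1 (3.45%) was called higher and 7 (24.1%) lower, against 7.72% and 38.4% of the table, and with the D. ponderosae scaling 7 higher and 1 lower. Myocyte-specific enhancer factor 2 (TRINITY_DN20336_c0_g1), which drives muscle genes, was at 21.5, 30.95 and 29.5 in January and 210.3, 88.7 and 195 in May (-2.47, SE 0.44, adjusted p = 0.00637). CREB-binding protein (TRINITY_DN23624_c1_g1), a histone acetyltransferase, was at 0.295, 0.830 and 1.01 against 6.88, 11.9 and 9.69 (-2.61, adjusted p = 0.00507), and was the only member of the list called lower also with the D. ponderosae scaling. The member called higher was zinc finger C2HC domain-containing protein TRINITY_DN23603_c0_g1, at 105, 103 and 65.9 against 24.8, 26.1 and 18.5 (1.92, adjusted p = 0.00758), a call lost with both equal-sum scalings. Of 26 chromatin and transcription regulators of the protein matches, 2 (7.69%) were called lower, against 7.47% of all unigenes, and the list's median was -0.22. Both calls were lost with the D. ponderosae scaling, 2 others were called higher and the median turned to 0.54. Of 18 ubiquitin and proteasome unigenes 1 (5.56%) was called lower (median 0.02, -0.13 without the 20 most abundant unigenes, -0.49 when the left-out unigenes entered the scaling), and with the D. ponderosae scaling 1 other was called higher and 0 lower.

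**Figure D4:**
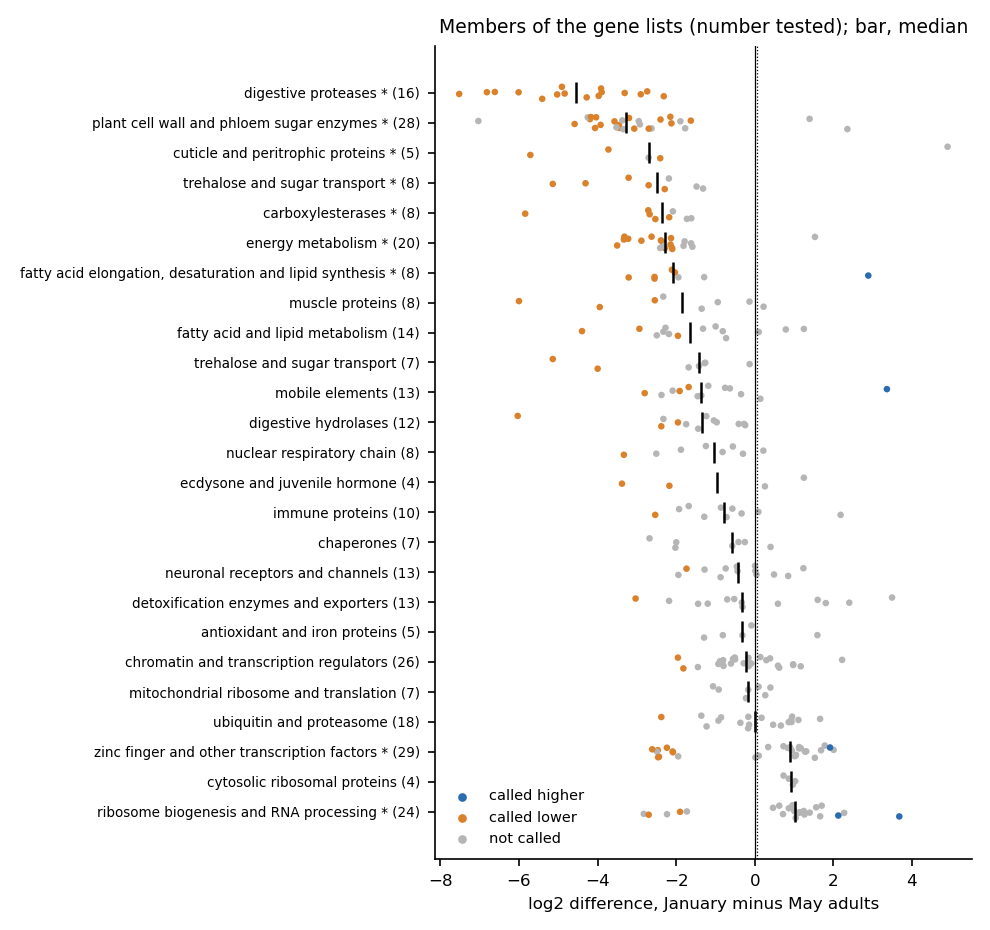
Difference between January and May adults (x axis, log2) for each tested member of 25 gene lists (y axis, number tested in brackets). Bars are medians, the dotted line is the median of all unigenes (0.06), and an asterisk marks lists taken from the study's table of common genes. The medians run from -4.56 for digestive proteases to 1.02 for ribosome biogenesis and RNA processing.

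Few unigenes with a beetle match were called higher in January with the first scaling, although 156 of 1536 were with the D. ponderosae scaling. Outside the table of common genes only 3 unigenes passed the naming rule, cytochrome oxidase I, cytochrome b and nucleobindin-2 (TRINITY_DN25726_c1_g1), a calcium-binding protein. Nucleobindin-2 was at 34.05, 79.8 and 44.6 in January and 8.67, 11.95 and 11.4 in May (2.13, SE 0.43, adjusted p = 0.00845), and its call was lost with equal FPKM sums, with or without the 20 most abundant unigenes. Within the table, dual specificity protein phosphatase 14 (TRINITY_DN23062_c0_g7), a regulator of kinase signalling, was at 57.4, 46.8 and 78.0 against 0.293, 8.76 and 4.80 (3.85, SE 0.74, adjusted p = 0.00743). Ran-binding protein 3 (TRINITY_DN17355_c0_g1), which assists export from the nucleus, was at 78.2, 53.2 and 49.3 against 5.46, 9.70 and 9.58 (2.74, SE 0.40, adjusted p = 0.00460). Prolyl 3-hydroxylase 2 (TRINITY_DN22520_c0_g3), which modifies collagen chains, was at 6.96, 16.8 and 8.24 against 1.08, 0.143 and 0.938 (2.72, SE 0.48, adjusted p = 0.00616). These 3 were called higher under the first 5 scalings.

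Primers for qPCR were designed for 15 unigenes, TRINITY_DN27539_c3_g1 among them. In the sequencing of adults, 3 of these were called higher and 9 lower. The study picked its qPCR genes among those it called in both stages from these libraries, so these calls are not independent evidence. Of the table of common genes 7.72% were called higher and 38.4% lower, and of all unigenes 11.0% and 7.47%. TRINITY_DN27537_c0_g1, without a name here, was at 816, 2231 and 1191 in January and 7.12, 10.9 and 4.10 in May (7.36, SE 0.51, adjusted p = 0.00154). TRINITY_DN22439_c0_g5, an uncharacterized protein, was at 1135, 2466 and 2087 against 67.3, 30.9 and 30.9 (5.46, SE 0.48, adjusted p = 0.00318). TRINITY_DN20229_c0_g1, also uncharacterized, was at 31.6, 257 and 80.3 against 5.03, 1.92 and 6.99 (4.08, SE 0.78, adjusted p = 0.00738), with a call that was lost with equal sums without the 20 most abundant unigenes. Among the lower ones, staphylococcal nuclease domain-containing protein 1 (TRINITY_DN22243_c0_g1), a transcription co-activator and RNA-binding protein, was at 5.43, 5.92 and 5.96 against 47.6, 53.5 and 39.98 (-2.82, SE 0.34, adjusted p = 0.00395). It and cathepsin L1-like were the 2 lower ones that kept their calls with the D. ponderosae scaling. TRINITY_DN27207_c0_g1 was at 28.1, 24.9 and 59.0 against 61.5, 95.3 and 65.8 and was not called (-1.05, adjusted p = 0.0966).

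The most abundant unigenes mostly carry no name here. TRINITY_DN19707_c2_g1 was the most abundant of both months, at 35143, 35014 and 149149 in January and 166134, 82971 and 157241 in May, and was not called (-1.19, adjusted p = 0.227). TRINITY_DN22834_c1_g1 was at 365, 520.4 and 763 in January and 32072, 10022 and 46856 in May (-5.55, SE 0.64, adjusted p = 0.00395). TRINITY_DN23862_c2_g1, TRINITY_DN23862_c3_g1 and TRINITY_DN20384_c1_g1 differed by -3.34, -3.38 and -3.37 and were called lower. All of these calls held under the first 5 scalings. TRINITY_DN19293_c0_g1 was at 35846.5 in January adult 3 and 2231 in May adult 1 but at 1.33, 0.540, 0.253 and 0.348 in the other 4 libraries, and TRINITY_DN19837_c0_g1, a hypothetical protein, at 41824 and 908 against 0.165 to 1.67. These levels followed the separation of January adult 3 and May adult 1 and not the month.

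Unigenes of the same Trinity component, which are assembled from overlapping reads and can be variants of a gene, did not always move together. Of 276 components with 2 or more unigenes called, 27 held 1 called higher and another called lower (12 with equal FPKM sums). In the component of lachesin, TRINITY_DN21145_c0_g2 was at 60.7, 40.01 and 38.8 in January and 3.26, 3.36 and 0.978 in May (3.81, adjusted p = 0.00395), the opposite of TRINITY_DN21145_c0_g7. This component was chosen after its values were seen. How reads were shared between such unigenes was not tested.

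The larvae of the same months were used to ask where adults differed from them, in a fit over all 12 libraries with a stage by month interaction. Larval differences and interactions come from this fit, in which the 12 libraries were scaled together. Adult differences are those of the 6-library scaling, so adult minus larval values as printed do not give the interaction. The median adult difference of the tested unigenes was 0.50 with all 12 libraries in the fit, against 0.06. The interaction was called in 838 of 23348 unigenes (3.59%). It passed in 68 of the 2107 unigenes higher in January adults and in 204 of the 1426 lower, and in 67 and 193 of these the adult difference was larger in its direction. For the 2107, the share that passed was close to the 3.59% of all unigenes. With FPKM as deposited, 39 and 316 passed. Both sets were chosen by the adult difference, and the same adult libraries enter the interaction. The agreement in direction is therefore not independent evidence. In larvae, 284 of the 1426 lower unigenes were also called lower and 25 were called higher. Of the 2107 higher unigenes, 63 were also called higher in larvae and 8 were called lower. Muscle actin differed by -6.001 in adults and 0.03 in larvae, an interaction of -5.41 (adjusted p = 0.00366). N-acetylglucosaminidase was higher in January adults and lower in January larvae (-4.63), an interaction of 9.79 (adjusted p = 0.00138). For a pair of cathepsins the interaction did not pass the test, which does not show that the stages were alike. Cathepsin L1-like differed by -6.04 in larvae and its interaction was 0.66 (adjusted p = 0.729), and cathepsin B TRINITY_DN20068_c0_g1 by -5.94 with an interaction of -0.04 (adjusted p = 0.978).

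**Figure D5:**
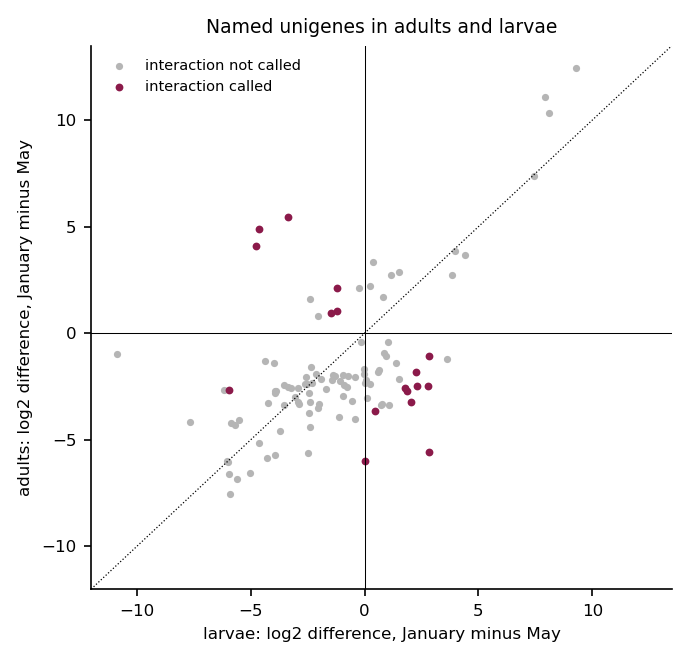
Difference between January and May in adults (y axis, log2, fit of the 6 adult libraries) against that in larvae (x axis, log2, fit of all 12 libraries) for the named unigenes, with the dotted line at equal values. The fits were scaled separately, so the distance from that line is not the interaction. Purple points passed the interaction test, and those at the upper left were higher in January adults but lower in January larvae.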

How the data were processed

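The authors sequenced poly(A) RNA of single whole insects, assembled unigenes with Trinity, mapped reads with Bowtie2 2.3.5.1 and estimated levels with RSEM 1.2.31, and the deposited values used here are FPKM. Columns of the authors' own comparisons (fold changes, p-values) were not used. Groups came from the labels, months from the study's methods.

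Unigenes under 1 FPKM in more than 3 of the 6 adult libraries were left out. The log2(scaled FPKM + 1) values were tested with limma 3.58.1 (trend, two-sided, 4 residual and 3.49 prior degrees of freedom) in R 4.3.3, which was tested on simulated data, and p-values were adjusted over all tested unigenes. The per-library shares were computed with Python 3.11.15.

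Names came from the part of the study's protein matches and of its table of common genes that was at hand. Named unigenes were the largest called differences that held under 5 scalings (10 in each direction outside the table and 6 within it; where fewer than 5 passed, those called by the first scaling), the qPCR unigenes, the 5 most abundant of each month, up to 4 called members of each gene list (the 2 largest if none was called) and the mitochondrially encoded unigenes; others were chosen after their values were seen. The lists, the rule and the members were chosen with earlier results of these data known.

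Alternatives were other scalings, filters, added values, thresholds, a replicate block, a fit of all 12 libraries and leaving out libraries. The scaling with the left-out unigenes, the 0.05 threshold with a library left out, component pairs under other scalings and the fit without January adult 3 and May adult 1 were chosen after seeing the data.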

Additional observations from a re-analysis of the deposited data

Results flagged for a closer look

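The month difference of 17 named unigenes was not the same in adults and larvae by the stage by month interaction in limma (adjusted p under 0.01 and a difference of 1 or more; 3.59% of all unigenes passed). Values are adult minus larval log2 differences, both from the fit of all 12 libraries scaled together. Those in favour of higher January levels in adults were N-acetylglucosaminidase TRINITY_DN20829_c0_g1 at 9.79, the uncharacterized TRINITY_DN22439_c0_g5 at 9.43 and TRINITY_DN20229_c0_g1 at 9.29, liver carboxylesterase TRINITY_DN23609_c0_g4 at 3.86, RNA helicase CG8611 TRINITY_DN23550_c0_g2 at 3.85, and ribosomal proteins S23 (TRINITY_DN24163_c0_g1) at 3.07 and L13 (TRINITY_DN23156_c0_g10) at 2.86. The carboxylesterase was called lower in both stages, by -2.67 in adults (fit of the 6 adult libraries) and -5.97 in larvae (fit of all 12).

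In the other direction were the unnamed, abundant TRINITY_DN22834_c1_g1 at -7.77, muscle actin TRINITY_DN22247_c2_g1 at -5.41, isocitrate dehydrogenase alpha TRINITY_DN21233_c1_g1 at -4.64, nuclear factor 1 C-type TRINITY_DN25084_c1_g3 at -4.63, myocyte-specific enhancer factor 2 TRINITY_DN20336_c0_g1 at -4.13 and trehalase-like TRINITY_DN23361_c0_g1 at -3.97. Muscle calcium channel subunit alpha-1 TRINITY_DN26185_c0_g1 stood at -3.72, potassium channel subunit beta-2 TRINITY_DN23825_c0_g6 at -3.49, 6-phosphofructo-2-kinase TRINITY_DN24049_c0_g4 at -3.47 and TRINITY_DN27207_c0_g1, which the study names a putative glutamate synthase, at -3.24.

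The unigenes left out as possibly of another organism took a mean of 6.18% of the FPKM sum in January adults (SD 3.25, n = 3) and 0.675% in May adults (SD 0.502, n = 3; exact permutation test p = 0.1). They do not enter the main comparison of adults. They do enter the alternatives with no unigene left out or with the left-out unigenes in the scaling, and the sums of the equal-sum scalings.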

How the results depend on the processing

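Counts of calls are given as higher and lower in January, beside 2107 and 1426. Scaling gave 2985 and 753 with FPKM as deposited, 1798 and 807 with equal sums, 1583 and 1410 with equal sums without the 20 most abundant unigenes, 4167 and 724 over D. ponderosae matches, and 1372 and 2254 with the left-out unigenes included. With no unigene left out there were 4986 and 1817, with unigenes seen in larvae only 211 and 685, with 0.1 added in place of 1 836 and 824, with no filter 31 and 72, with 1 FPKM in all libraries of a month 3193 and 2080, with all 12 libraries in the fit 637 and 740, and at an adjusted p under 0.05 4440 and 3340. Leaving out a single library gave 1 to 343 and 0 to 360, and at 0.05 3093 to 4428 and 2167 to 3299. Without January adult 3 and May adult 1 there were 2 and 0, and 3715 and 2604 at 0.05; at an unadjusted p under 0.05, 9127 unigenes passed, beside 9469 with all 6 libraries. Opposite calls within a component fell from 27 to 12 with equal sums. The number of adult calls with an interaction was 272, and 355 with FPKM as deposited.

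The replicate numbers did not pair the samples (correlations of deviations -0.35, 0.08 and -0.11 for numbers 1, 2 and 3), and with the replicate block 4 and 16 unigenes were called.

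Medians that changed sign were those of all unigenes (-0.055 without the 20 most abundant, -0.35 with the left-out unigenes), of unigenes without a name (-0.28 with the left-out unigenes), of D. ponderosae matches outside the table (0.042 as deposited, 0.23 over D. ponderosae matches), of beetle matches (0.017 over D. ponderosae matches), of chromatin regulators (0.36 as deposited, 0.067 with equal sums, 0.54 over D. ponderosae matches), of mitochondrial ribosome unigenes (0.47, 0.14 and 0.68 in the same order), of detoxification enzymes (0.27 and 0.47), neuronal receptors (0.15 and 0.35), chaperones (0.072 and 0.29) and antioxidant and iron proteins (0.32 and 0.54) as deposited and over D. ponderosae matches, and of ubiquitin and proteasome unigenes (-0.13 without the 20 most abundant, -0.49 with the left-out unigenes). Of the named unigenes, TRINITY_DN16728_c1_g1 (0.13 over D. ponderosae matches) and TRINITY_DN20921_c0_g5 (0.23 without January adult 3 and May adult 1) changed sign, as did, with a library left out, TRINITY_DN19147_c0_g1 (-1.80 to 0.041), TRINITY_DN19293_c0_g1 (-3.04 to 5.28), TRINITY_DN19837_c0_g1 (-2.52 to 5.30) and TRINITY_DN25457_c0_g1 (-0.69 to 2.69), none of them called. The causes were not tested. Adjusted p-values of the 3-against-3 fit rest on 4 residual degrees of freedom, and levels near the value of 1 read cannot be ordered.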
